A study of Mus musculus with 31 samples.

Results

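The histone cluster genes were followed in the mouse uterus after estradiol. They were the genes whose name on the array begins with Hist1h, Hist2h, Hist3h or Hist4h, each read by its brightest probe. Of 35018 genes on the array, 49 met this rule, with 55 probes. By name, 6 are of the class of linker histone H1, 14 of H2A, 12 of H2B, 8 of H3 and 9 of H4. Hist2h3c2-ps and Hist3h2bb-ps are counted among them, though -ps is the ending of pseudogene names. Neither matched a RefSeq gene by accession. By cluster, 36 genes carry a Hist1 name (chromosome 13), 9 a Hist2 name (chromosome 3), 3 a Hist3 name (chromosome 11) and 1 a Hist4 name (chromosome 6).

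Uterine RNA was read on 31 one-colour arrays, 1 per sample. The mice had lost their ovaries at 4 weeks of age, and after 3 weeks of rest they received castor oil under the skin for 6 h. The oil carried 17β-estradiol (E2) at 8 µg/kg or at 0 µg/kg, which is called placebo. The AF2 line, on C57BL6/J, gave the groups AF2 KO E2 (3 arrays), AF2 KO placebo, AF2 WT E2 and AF2 WT placebo (4 arrays each). The MISS line, on C57BL6/N, gave MISS KO E2, MISS KO placebo, MISS WT E2 and MISS WT placebo (4 arrays each). The labels name the genotypes KO and WT and give no further description of the alleles. What the names stand for is not in the labels. From general knowledge, AF2 mice lack activation function 2 of estrogen receptor α, the surface that recruits coactivators when hormone binds, and in MISS mice the receptor does not reach the cell membrane. RNA came from the uterus with all its cell types, so a lower signal from fewer cells of a type and one from less RNA per cell cannot be told apart.

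Histones are the proteins around which DNA is wound. Pairs of H2A, H2B, H3 and H4 form the core of the nucleosome, and H1 binds the DNA between cores. Most genes of the clusters are copied from DNA chiefly during S phase, when new DNA must be packed, and their messages end in a short stem-loop in place of a poly(A) tail. Some of them also give messages with a poly(A) tail in cells that do not divide, Hist1h1c and Hist2h2be among them. In the uterus of an ovariectomised mouse, E2 starts a wave of cell division in the epithelium that comes some hours after the first changes in gene expression.

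Levels below are log2 values of the processed signal relative to the 75th percentile of the array, so that 0 means as bright as that percentile. They may be compared between arrays for 1 probe, and not between probes. Of the 49 genes, 44 were tested because all arrays of some group had their probe well above background, and 38 were so on all 31 arrays. Hist1h1d, Hist1h2ae, Hist1h3a, Hist1h3g and Hist3h2bb-ps were not tested. A gene was called at an adjusted p under 0.05 in limma, adjusted by the Benjamini-Hochberg method over the 27055 genes tested. A change is a log2 fold change, written with its standard error (SE) after the ± sign. The labels do not say whether litters or days were shared, so p-values measure the spread between these mice and may include technical spread. Arrays had a 75th percentile between 474.7 and 918.4 intensity units, with no saturated spot, and 61.8 to 77.1% of their probes stood well above background. All 6 epithelial, 6 stromal and 6 smooth muscle markers were tested. Esr1, the targeted gene, was lower in AF2 KO than in AF2 WT placebo uteri, with a log2 fold change of −0.47 ± 0.12 (adjusted p = 0.0147 in limma) and was not called between MISS KO and MISS WT placebo uteri (0.05 ± 0.12). Where its probe lies relative to the mutations was not analysed here.

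In AF2 WT uteri, 23 of the 44 histone genes fell after E2 and 2 rose. Among all genes tested, 57.6% were called in this comparison, 30% lower and 27.6% higher. The histone genes were thus called about as often as other genes, and their calls ran mostly downwards. Their median change was −0.54, beside −0.07 over all genes tested. In AF2 KO uteri the median was −0.02, beside 0.04 over all genes, and 1 histone gene was called, Hist1h4i (higher), where 3.68% of all genes were called, 3.13% higher. In MISS KO uteri 26 histone genes fell and 2 rose, with 57.3% of all genes called, 27.2% lower and 30.1% higher, and a median of −0.72 beside 0.03 over all genes. In MISS WT uteri 19 fell and 3 rose, with 62.2% of all genes called, 27.1% lower and 35.1% higher, and a median of −0.58 beside 0.16 over all genes.

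**Figure D1:**
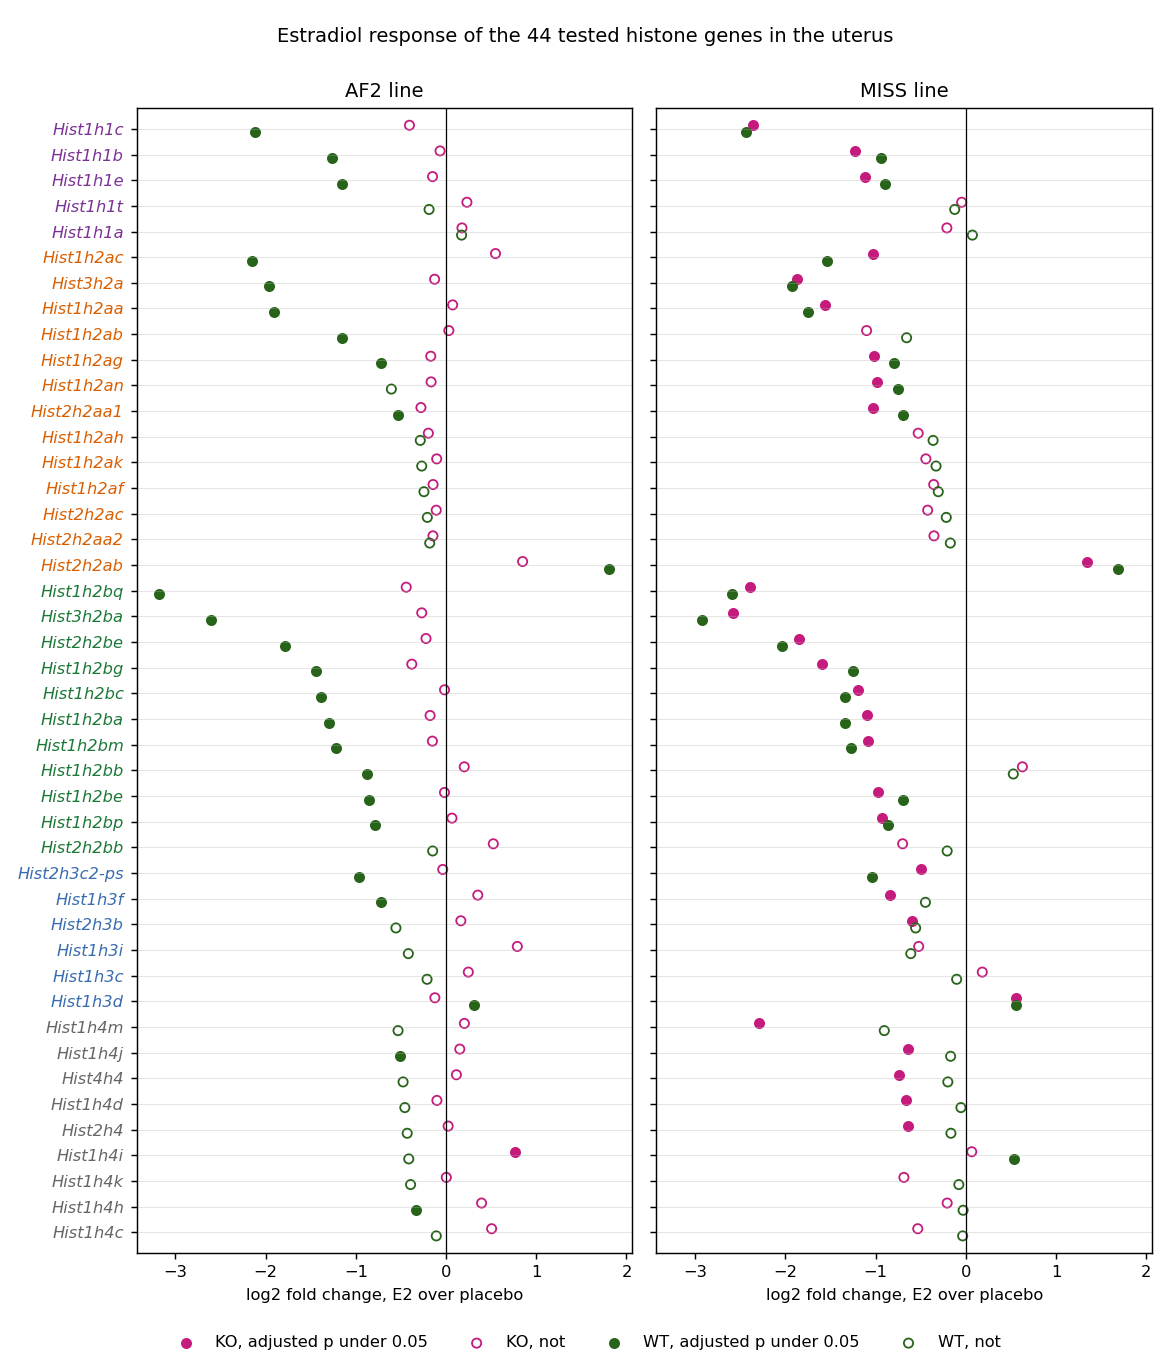
Log2 fold change of E2 over placebo (x axis) for each of the 44 tested histone genes (rows, coloured by class H1, H2A, H2B, H3 and H4), in KO and WT uteri of the AF2 line (left panel) and the MISS line (right panel); filled points had an adjusted p under 0.05. The WT points of the AF2 line reach −3.18 and those of the KO uteri stay between −0.44 and 0.85, while in the MISS line KO and WT points lie side by side.

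Of the 5 tested linker histone genes, 3 fell in AF2 WT, MISS KO and MISS WT each, and none was called in AF2 KO by limma, where 1 had an unadjusted p under 0.05. The share called was 60% in each of these 3 genotypes, near the 57.6%, 57.3% and 62.2% over all genes. Over all genes 30%, 27.2% and 27.1% were called lower there. Hist1h1c, Hist1h1b and Hist1h1e, which encode the subtypes H1.2, H1.5 and H1.4, were lower in AF2 WT uteri by log2 fold changes of −2.11 ± 0.17, −1.27 ± 0.21 and −1.15 ± 0.36 (adjusted p = 5.52e-11, 9.45e-06 and 0.00787 in limma). Hist1h1a, the gene for H1.1, changed by 0.17 ± 0.24 and Hist1h1t, the testis form, by −0.19 ± 0.19, and neither was called. Hist1h1c lay at 3.07, 2.74 and 2.38 on AF2 KO E2 arrays, against 3.47, 3.18, 2.96 and 2.93 on AF2 KO placebo arrays. On AF2 WT E2 arrays it lay at 1.13, 0.66, 0.86 and 0.76, against 2.90, 3.26, 2.68 and 3.02 on AF2 WT placebo arrays. Its E2 and placebo arrays did not overlap in AF2 WT and did overlap in AF2 KO. On slides 1, 3 and 4, which held both AF2 KO groups, it lay lower after E2 on each. Its AF2 KO change was −0.41 ± 0.19 (adjusted p = 0.258 and unadjusted p = 0.0396 in limma). In the MISS line its levels were 0.40 to 0.91 in KO E2 against 3.02 to 3.19 in KO placebo, and 0.52 to 0.73 in WT E2 against 2.66 to 3.57 in WT placebo.

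H2B was the class with the highest share of falls, 10 of 11 tested genes in AF2 WT and 9 of 11 in MISS KO and in MISS WT. Over all genes 30%, 27.2% and 27.1% were called lower in the same order. In AF2 KO none of the 11 was called by limma, and 1 had an unadjusted p under 0.05. Hist1h2bq fell in AF2 WT, with a fitted change of −3.18 ± 0.38 (adjusted p = 5.08e-08 in limma). Its levels were −2.67, −2.99 and −3.67 on AF2 KO E2 arrays, against −2.16, −2.61, −3.06 and −2.85 on AF2 KO placebo arrays. They were −6.26, −5.83, −6.06 and −6.08 on AF2 WT E2 arrays, against −3.13, −3.02, −2.99 and −2.37 on AF2 WT placebo arrays. The probe was well above background on 0 of 4 AF2 WT E2 arrays, so that the fall is stated as at least 6.18-fold, with the lowest signal that the scanner called well above background on an array taken as its floor. In the MISS line it fell by −2.40 ± 0.38 in KO and −2.59 ± 0.38 in WT, with 3 of 4 and 2 of 4 E2 arrays well above background.

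Hist3h2ba, an H2B gene outside the large clusters, fell in the same 3 genotypes. Its levels were 1.56, 1.11 and 1.30 on AF2 KO E2 arrays, against 1.69, 1.83, 1.38 and 1.48 on AF2 KO placebo arrays. On AF2 WT E2 arrays they were −0.86, −0.82, −0.90 and −0.80, against 1.68, 1.81, 1.70 and 1.87 on AF2 WT placebo arrays. The AF2 WT arrays were 6.10-fold lower after E2 and the groups did not overlap. The AF2 KO groups overlapped and the gene changed there by −0.27 ± 0.18 (adjusted p = 0.474 in limma). On slides 1, 3 and 4, which held both AF2 KO groups, it lay lower after E2 on each. In the MISS line its levels were −1.43 to −0.88 in KO E2 against 1.31 to 1.58 in KO placebo, and −1.76 to −1.12 in WT E2 against 0.86 to 1.91 in WT placebo.

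Hist2h2be, Hist1h2bg and Hist1h2bc, further H2B genes, followed the same order. Hist2h2be lay at 0.56, 0.25 and 0.33 on AF2 KO E2 arrays against 0.90, 0.53, 0.45 and 0.52 on AF2 KO placebo arrays, and at −0.99, −0.80, −0.90 and −0.77 on AF2 WT E2 arrays against 0.98, 0.86, 0.71 and 1.12 on AF2 WT placebo arrays. Hist1h2bg lay at −3.57, −3.80 and −3.36 on AF2 KO E2 arrays against −2.97, −3.26, −3.44 and −3.11 on AF2 KO placebo arrays, and at −5.06, −5.01, −4.91 and −4.80 on AF2 WT E2 arrays against −3.56, −3.62, −3.75 and −3.10 on AF2 WT placebo arrays. Hist1h2bc lay at 3.52, 3.67 and 3.34 on AF2 KO E2 arrays against 3.88, 3.38, 3.67 and 3.18 on AF2 KO placebo arrays, and at 2.17, 2.11, 2.39 and 1.50 on AF2 WT E2 arrays against 3.40, 3.52, 3.57 and 3.23 on AF2 WT placebo arrays. All 3 genes had E2 and placebo arrays apart in AF2 WT and overlapping in AF2 KO. In AF2 KO they changed by −0.22 ± 0.14, −0.38 ± 0.15 and −0.02 ± 0.23. None was called there, though Hist1h2bg was with the slide as a block. Within slides 1, 3 and 4, AF2 KO levels after E2 were lower on each for Hist2h2be and Hist1h2bg, and on slide 1 only for Hist1h2bc. The AF2 WT changes of the 3 genes were −1.78 ± 0.13, −1.44 ± 0.14 and −1.38 ± 0.21. Hist1h2ba, Hist1h2bm, Hist1h2bb, Hist1h2be and Hist1h2bp also fell in AF2 WT, by −1.30 to −0.79, and Hist2h2bb was the 1 tested H2B gene not called there (−0.15 ± 0.43). In the MISS line Hist1h2bb went the other way, by 0.63 ± 0.28 in KO and 0.53 ± 0.28 in WT, and was not called.

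**Figure D2:**
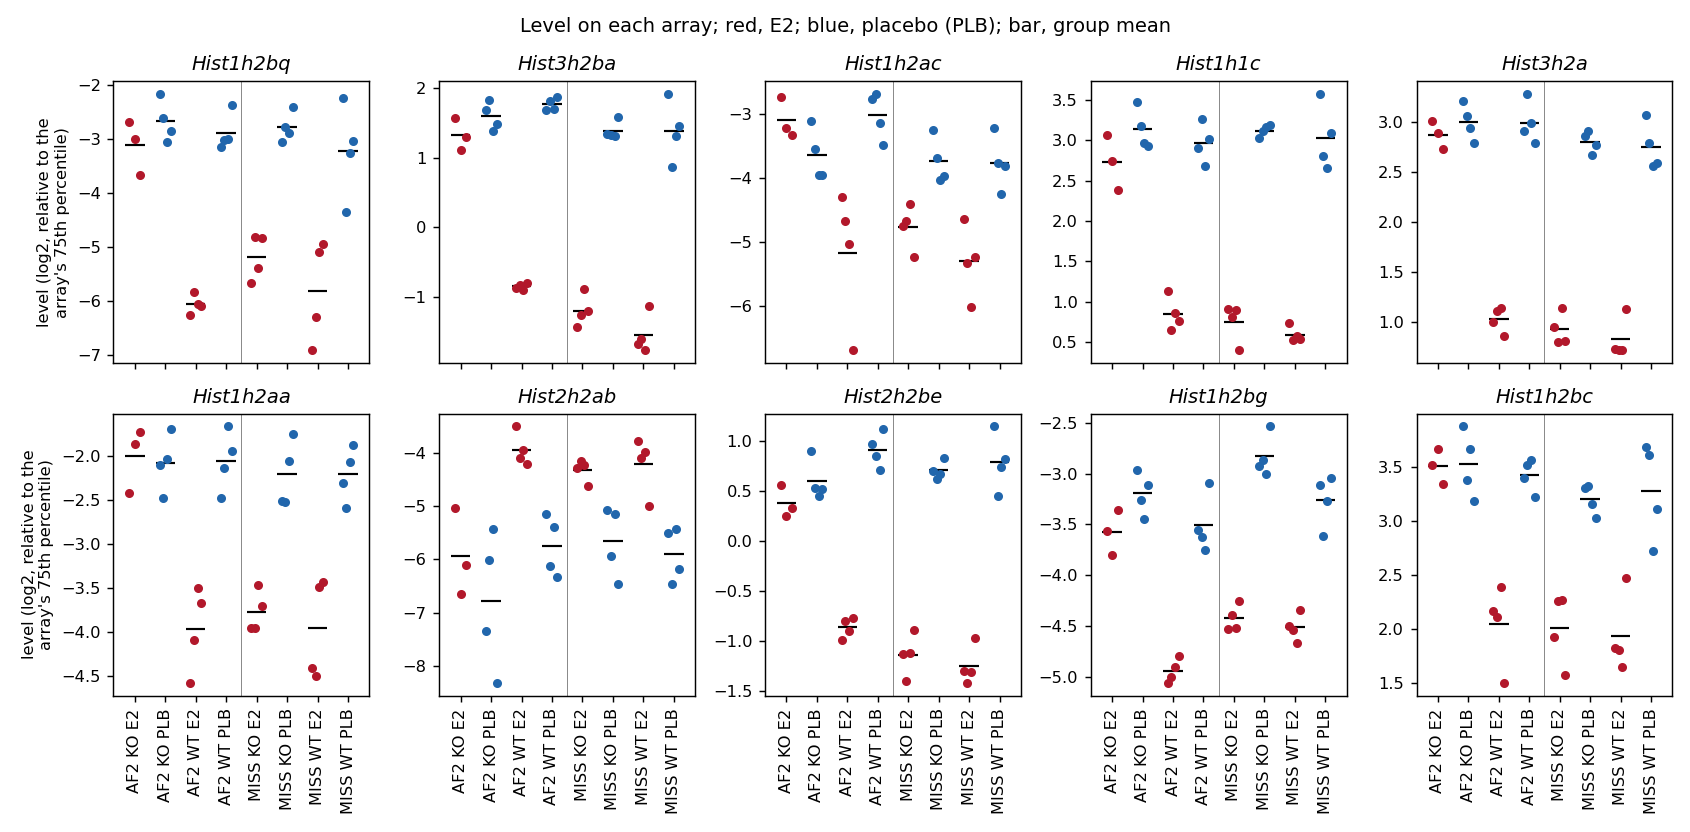
Level on each array (y axis, log2 relative to the 75th percentile of the array; each panel has its own scale) of the 10 histone genes with the largest called change in AF2 WT uteri, in the 8 groups (x axis); red points are E2 arrays, blue points placebo arrays (PLB) and bars group means. Hist3h2ba lies near −0.85 on AF2 WT E2 arrays and near 1.76 on AF2 WT placebo arrays, while the AF2 KO E2 arrays lie near 1.33.

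Among the 13 tested H2A genes, 6 fell and 1 rose in AF2 WT, and the same numbers were called in MISS KO and in MISS WT. The share called was 53.8% in each, near the 57.6%, 57.3% and 62.2% over all genes. None of the 13 was called in AF2 KO by limma, nor had any an unadjusted p under 0.05. Hist1h2ac fell by −2.16 ± 0.37 (adjusted p = 1.27e-05 in limma). Its levels were −2.73, −3.21 and −3.33 on AF2 KO E2 arrays against −3.11, −3.55, −3.95 and −3.95 on AF2 KO placebo arrays, and −4.29, −4.68, −5.03 and −6.69 on AF2 WT E2 arrays against −2.77, −2.68, −3.14 and −3.48 on AF2 WT placebo arrays. The AF2 WT groups were apart, and 3 of 4 E2 arrays were well above background. Hist3h2a, the H2A gene beside Hist3h2ba, fell by −1.96 ± 0.13. It lay at 3.00, 2.89 and 2.72 on AF2 KO E2 arrays against 3.21, 3.05, 2.94 and 2.79 on AF2 KO placebo arrays, and at 0.997, 1.11, 1.14 and 0.86 on AF2 WT E2 arrays against 2.91, 3.28, 2.98 and 2.78 on AF2 WT placebo arrays, with no overlap in AF2 WT.

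Hist2h2ab, another H2A gene, rose after E2 in the 3 genotypes where most of the called histone genes fell. Its levels were −5.03, −6.66 and −6.11 on AF2 KO E2 arrays against −7.35, −6.01, −5.43 and −8.32 on AF2 KO placebo arrays. They were −3.49, −4.09, −3.94 and −4.20 on AF2 WT E2 arrays against −5.15, −6.12, −5.38 and −6.33 on AF2 WT placebo arrays. The AF2 WT groups were apart, with all 4 E2 arrays and 1 of 4 placebo arrays well above background. The rise was 1.81 ± 0.46 in AF2 WT, 1.34 ± 0.46 in MISS KO and 1.69 ± 0.46 in MISS WT (adjusted p = 0.00154, 0.0156 and 0.00267 in limma). In the MISS line all E2 arrays, 3 of 4 KO placebo arrays and 1 of 4 WT placebo arrays were well above background. The sizes of these rises thus rest in part on placebo signal that was not well above background. In AF2 KO, where 1 of 3 E2 arrays and 1 of 4 placebo arrays were well above background, the gene changed by 0.85 ± 0.50 and was not called, and the difference between the AF2 KO and AF2 WT responses was not called either (−0.96 ± 0.68, adjusted p = 0.247 in limma).

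Several H2A genes could not be read apart. The probes of 7 H2A genes share unbroken runs of at least 20 bases with those of other H2A genes, so that each may also capture their messages. The stretch they have in common is shown for each gene, with a capital where the base differs from the majority at that place, counted without gaps.
Hist1h2af: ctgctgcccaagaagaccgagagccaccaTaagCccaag
Hist1h2ag: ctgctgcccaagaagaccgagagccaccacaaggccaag
Hist1h2ah: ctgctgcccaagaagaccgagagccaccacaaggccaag
Hist1h2ak: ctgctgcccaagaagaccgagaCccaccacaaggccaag
Hist1h2an: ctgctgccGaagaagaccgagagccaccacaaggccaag
Hist2h2aa2: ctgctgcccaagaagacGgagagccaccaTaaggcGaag
Hist2h2ac: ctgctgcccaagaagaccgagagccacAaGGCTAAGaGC

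The probes lie, in the mm9 coordinates of the files, at chr13:23626113-23626172 (plus strand) for Hist1h2af, chr13:22127035-22127094 (minus) for Hist1h2ah, chr13:21845304-21845363 (minus) for Hist1h2ak, chr13:21878695-21878754 (minus) for Hist1h2an, chr3:96049837-96049896 (plus) for Hist2h2aa2 and chr3:96024378-96024437 (minus) for Hist2h2ac. The stretches of Hist1h2ag and Hist1h2ah are identical over these 39 bases. The probes of these 7 genes gave 10100 to 75200 intensity units. Their changes were −0.20 to −0.10 in AF2 KO, −0.72 to −0.18 in AF2 WT, −1.02 to −0.35 in MISS KO and −0.80 to −0.17 in MISS WT. Of the 7, Hist1h2ag was called lower in AF2 WT, and Hist1h2ag and Hist1h2an were called lower in both MISS genotypes. Hist1h2ak has another probe, nearer the start of the message, which shares no such run with these probes. That probe changed by −0.30 ± 0.25 in AF2 KO, −0.87 ± 0.23 in AF2 WT, −0.72 ± 0.23 in MISS KO and −0.80 ± 0.23 in MISS WT, whereas the brighter, shared one changed by −0.10 ± 0.28, −0.27 ± 0.26, −0.44 ± 0.26 and −0.33 ± 0.26 in the same order. In all, 14 of the 44 tested genes have a probe that shares 20 or more bases with a probe of another histone gene. Among them, the Hist1h3c and Hist1h3f probes share 36 bases and the Hist1h4d and Hist1h4j probes 20. Some of the H2A probes share such a run with a probe of H2aj, an H2A gene outside the clusters. Probes were compared only with other probes of the array and not with histone messages. A probe without such a run may therefore still capture messages of related genes. Without these 14 genes the median change in AF2 WT was −0.92 in place of −0.54, and in MISS WT −0.88 in place of −0.58.

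The 6 tested H3 genes gave 2 falls in AF2 WT, Hist2h3c2-ps (−0.96 ± 0.20) and Hist1h3f (−0.73 ± 0.20), and 1 rise. The share called was 50%, near the 57.6% over all genes. Hist2h3c2-ps has the name of a pseudogene. The Hist1h3f probe shares 36 bases with that of Hist1h3c, which changed by −0.21 ± 0.47 in AF2 WT and was not called. The rise was that of Hist1h3d, by 0.30 ± 0.11 (adjusted p = 0.0242 in limma), and its direction turned under quantile normalization (−0.16) and in the authors' deposited table (−0.17). It was also called higher in MISS KO (0.55 ± 0.11) and MISS WT (0.56 ± 0.11), and in MISS WT its direction turned under the same alternatives (−0.05 and −0.03). In AF2 KO none of the 6 was called by limma, and none had an unadjusted p under 0.05. The 9 H4 genes had the smallest median change of the 5 classes in both wild types, −0.43 in AF2 WT and −0.08 in MISS WT. Hist1h4j (−0.51 ± 0.20) and Hist1h4h (−0.33 ± 0.11) fell in AF2 WT, and none fell in MISS WT. In MISS KO 5 fell, Hist1h4m, Hist4h4, Hist1h4d, Hist1h4j and Hist2h4, by −2.30 to −0.64. Whether the H4 probes also capture messages of other H4 genes was not tested. Over all genes 30% were called lower in AF2 WT, 27.1% in MISS WT and 27.2% in MISS KO. Hist1h4m changed by −2.30 ± 0.61 in MISS KO (adjusted p = 0.00209 in limma) and by −0.90 ± 0.61 in MISS WT, with no call on the difference (−1.39, 95% interval −3.17 to 0.39). Its MISS KO E2 arrays were well above background in 2 of 4 cases.

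Hist1h4i was read differently by its 3 probes. The brightest, which stands for the gene here, changed by 0.76 ± 0.21 in AF2 KO, −0.41 ± 0.19 in AF2 WT, 0.06 ± 0.19 in MISS KO and 0.54 ± 0.19 in MISS WT (adjusted p = 0.042, 0.0726, 0.807 and 0.0191 in limma). The other two changed by −0.29 and 0.03 in AF2 KO, −1.14 and −0.78 in AF2 WT, −0.97 and −1.18 in MISS KO, and −0.75 and −0.69 in MISS WT. The direction in MISS WT thus depended on the probe, and the mean of the 3 probes there was −0.30. The call in AF2 KO was lost under quantile normalization, with the mean of probes, with the AF2 arrays alone, and without AF2 KO E2 replicate 1 or 2 or AF2 KO placebo replicate 1, 2 or 4. The brightest probe shares a run of 20 or more bases with 2 probes of genes that encode no histone, Galns and Slc10a1, 1 on the same strand and 1 on the opposite strand. What share of its signal came from other messages was not tested.

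The stem-loop itself lay within few probes, while probes placed before it can also read messages that end in it. The letters of the histone stem-loop were searched on the probe strand and were whole in 5 of the 55 probes. The stretch around it is shown with the stem-loop in capitals and up to 5 bases on either side.
Hist1h3a: ccaaaGGCTCTTTTCAGAGCCaca
Hist1h3i: caaaaGGCTCTTTTCAGAGCCccctc
Hist1h4m: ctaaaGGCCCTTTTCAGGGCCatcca
Hist2h2aa1: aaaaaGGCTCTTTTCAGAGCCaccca
Hist2h2bb: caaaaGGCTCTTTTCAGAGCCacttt

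In mm9 these probes lie at chr13:23853756-23853815 (minus strand) for Hist1h3a, chr13:21874784-21874843 (minus) for Hist1h3i, chr13:21903960-21904019 (plus) for Hist1h4m, chr3:96049949-96050008 (plus) for Hist2h2aa1 and chr3:96074056-96074115 (plus) for Hist2h2bb. Of the 4 that were tested, Hist2h2aa1 fell by −0.53 ± 0.14 in AF2 WT (adjusted p = 0.00248 in limma). Its probe runs 38 bases past the stem-loop, the others 3 to 6 bases. In the file coordinates, the probes of Hist2h2aa1 and Hist2h2aa2 lie close together on the plus strand. The promoter window of Hist2h2aa2 is on the minus strand. Both probes may thus read the same message, which was not tested. The Hist2h2aa2 probe changed by −0.18 ± 0.25 in AF2 WT and was not called. Hist1h3i, Hist1h4m and Hist2h2bb changed by −0.42 ± 0.40, −0.53 ± 0.61 and −0.15 ± 0.43 in AF2 WT and were not called. The labels name a Quick Amp kit for labelling, and such kits prime on the poly(A) tail, so that signal from messages without a tail may be understated. How much of it each probe received was not tested.

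Where the probe lies in the message was set beside the change. The coding sequence of a core histone is short, and 10 of the 39 tested core histone genes had a probe that starts 500 or more bases into the message. They were Hist1h2ac, Hist1h2bc, Hist1h2be, Hist1h2bg, Hist1h2bp, Hist1h2bq, Hist2h2be, Hist2h3c2-ps, Hist3h2a and Hist3h2ba. All 10 fell in AF2 WT, MISS KO and MISS WT, with medians of −1.61, −1.39 and −1.44, and none was called in AF2 KO (median −0.08). Over all genes 30%, 27.2% and 27.1% were called lower in the 3 former genotypes. The 29 genes with a probe nearer the start had 10 falls and 2 rises in AF2 WT, 13 falls and 2 rises in MISS KO, and 6 falls and 3 rises in MISS WT, with medians of −0.43, −0.64 and −0.22. Leaving out probes with a shared run gave 15 genes with a median of −0.48 in AF2 WT. This split was made after the values had been seen and was not tested. It follows the class of the histone in part, since 7 of the 10 far probes read H2B genes of 11 tested, and place and class were not told apart.

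**Figure D3:**
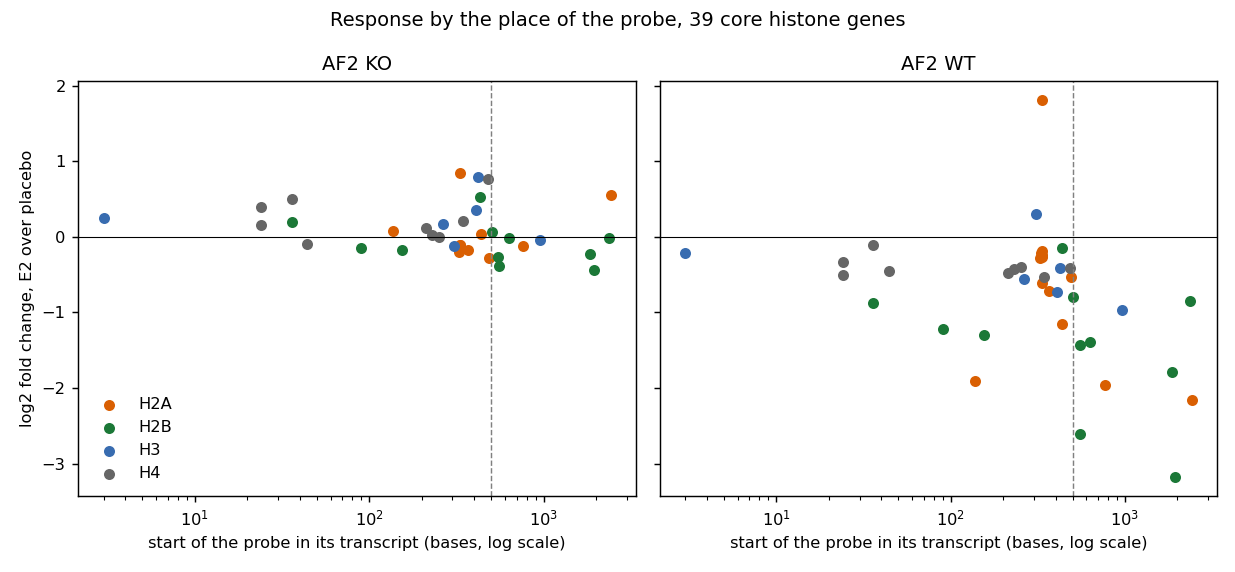
Log2 fold change of E2 over placebo (y axis) against the start of the probe in its transcript (x axis, bases, log scale) for the 39 tested core histone genes, coloured by class, in AF2 KO (left) and AF2 WT (right) uteri; the dashed line marks 500 bases. All 10 genes right of the line lie between −3.18 and −0.79 in AF2 WT and between −0.44 and 0.55 in AF2 KO.

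Genes of the list known to give messages with a poly(A) tail, Hist1h1c, Hist1h2bc, Hist2h2be, Hist3h2a and Hist4h4, fell in 4 of 5 cases in AF2 WT and in MISS WT and in 5 of 5 in MISS KO. Hist4h4 was the exception (−0.48 ± 0.27 in AF2 WT and −0.20 ± 0.27 in MISS WT). These values come from a probe that starts 212 bases into the message. The other Hist4h4 probe starts 1788 bases into the message. It was well above background on 0 arrays and was not tested. Whether the values of Hist4h4 are those of a message with a poly(A) tail was thus not tested. Over all genes 30% were called lower in AF2 WT, 27.1% in MISS WT and 27.2% in MISS KO. None of the 5 list members was called in AF2 KO by limma, and 1 had an unadjusted p under 0.05. Of the genes first known from the testis, Hist1h2aa and Hist1h2ba fell and Hist1h1t was not called. Hist1h2aa lay at −2.42, −1.86 and −1.73 on AF2 KO E2 arrays against −2.10, −2.47, −2.03 and −1.70 on AF2 KO placebo arrays, and at −4.58, −4.09, −3.50 and −3.67 on AF2 WT E2 arrays against −2.47, −2.14, −1.66 and −1.94 on AF2 WT placebo arrays. The AF2 WT groups were apart and the AF2 KO groups overlapped. In MISS KO and MISS WT it fell by −1.56 ± 0.27 and −1.75 ± 0.27. All 10 genes plotted by array had E2 and placebo arrays apart in AF2 WT, MISS KO and MISS WT. They were chosen for the largest called changes in AF2 WT, so being apart there followed largely from the choice. How many of all genes tested were apart was not counted.

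The responses of the AF2 mutant and its wild type differed for 19 of the 44 genes, and 51.9% of all genes were called in that comparison. For 18 of the 19 the AF2 KO response was the higher one, where 29% of all genes were called higher and 22.9% lower. These were 2 H1, 3 H2A, 9 H2B, 2 H3 and 2 H4 genes. The differences, KO minus WT, were 2.70 ± 0.54 for Hist1h2ac, 2.34 ± 0.24 for Hist3h2ba, 1.98 ± 0.39 for Hist1h2aa, 1.83 ± 0.18 for Hist3h2a and 1.71 ± 0.25 for Hist1h1c (adjusted p of 0.000189 or lower in limma). That of Hist1h2bq was fitted at 2.74 ± 0.56, but its AF2 WT fall has only a bound, so this size is given no rank among the others. Hist1h3d was the 1 gene with a lower response in AF2 KO (−0.43 ± 0.17), a difference that turned to 0.0025 under quantile normalization and 0.0107 in the authors' deposited table. The median difference was 0.73 over the histone genes and 0.18 over all genes tested, of which quantile normalization left 0.04. With the slide as a fixed block, 30 of the 44 genes were called, beside 16889 of the 27055 genes tested.

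Genes chosen in the other line gave the same order. Of the 19 genes that fell in MISS WT, 0 were called lower in AF2 KO and 18 in AF2 WT, with medians of −0.15 and −1.30. In MISS KO and MISS WT, the 23 genes that fell in AF2 WT had medians of −1.10 and −1.04. In all, 18 genes fell in AF2 WT, MISS KO and MISS WT alike, which is 78.3%, 69.2% and 94.7% of the genes that fell in each. Over the 44 genes, the AF2 WT and MISS WT changes correlated at a Pearson r of 0.927 (Spearman 0.871), which describes genes read by the same probes in separate mice. Over all genes, 30%, 27.2% and 27.1% were called lower in AF2 WT, MISS KO and MISS WT, and 3.68% were called in AF2 KO. Shared calls and correlations were not computed over all genes, so this order is not shown to be particular to the histone genes.

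The deepest falls of the MISS line were those of Hist3h2ba, by −2.58 ± 0.16 in MISS KO and −2.92 ± 0.16 in MISS WT, and of Hist1h1c, by −2.36 ± 0.17 and −2.44 ± 0.17, besides Hist1h2bq above. The 2 genotypes were then compared. Over the 44 histone genes, 0 were called by limma for MISS KO minus MISS WT response, 0 had an unadjusted p under 0.05, and 0.898% of all genes were called. With the slide as a fixed block, 1 was called, Hist1h4d (lower response in MISS KO), and with the slide as a random block 0. Of the 27055 genes tested, these fits called 1119 and 802. The differences ran between −1.39 (Hist1h4m) and 0.54 (Hist2h3c2-ps), with a median of −0.18 beside −0.07 over all genes. In 25 of the 44 genes the 95% interval, from the fit without the slide, stayed inside 2-fold in either direction, Hist1h1c, Hist2h2be, Hist3h2a and Hist3h2ba included. For the other 19 genes a difference of 2-fold or more was within the interval. The median of the MISS WT response was −0.32 without MISS WT placebo replicate 1, against −0.58 with it, and 19 genes were then called.

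**Figure D4:**
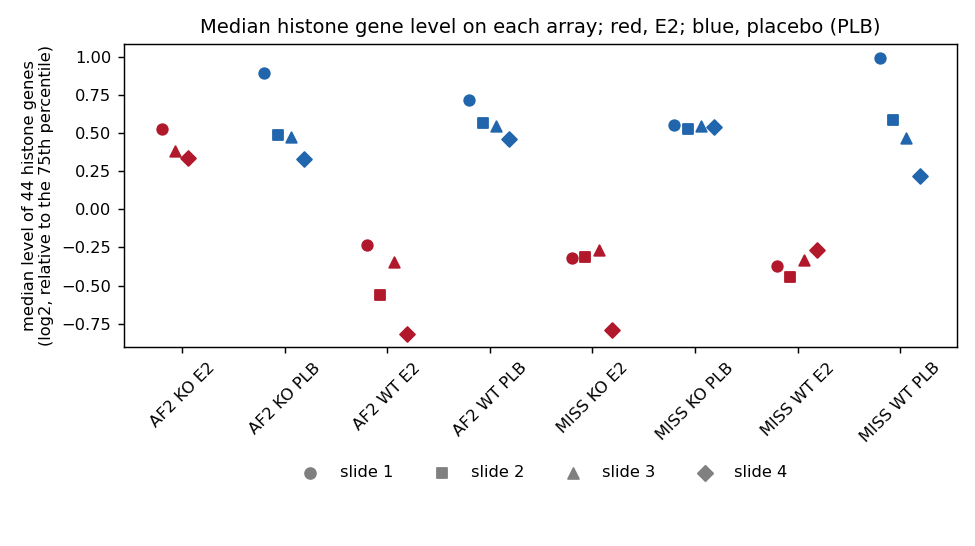
Median level of the 44 tested histone genes on each array (y axis, log2 relative to the 75th percentile) in the 8 groups (x axis); marks give the slide, red is E2 and blue is placebo (PLB). The AF2 KO E2 arrays lie at 0.34 to 0.53, within the range of the placebo arrays, and the E2 arrays of the other genotypes at −0.82 to −0.23.

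Slides held arrays of all groups, except that slide 2 held no AF2 KO E2 array. Within slides 1 to 4 the median change of the histone genes was −0.62, −0.65, −0.57 and −0.58 in AF2 WT, −0.74, −0.71, −0.72 and −0.99 in MISS KO, and −0.93, −0.44, −0.35 and −0.42 in MISS WT. In AF2 KO it was −0.04, −0.09 and 0.15 within slides 1, 3 and 4. Each of the 3 responding genotypes thus had a lower median after E2 on every slide.

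Without E2, few histone genes differed between genotypes. In AF2 KO against AF2 WT placebo uteri 2 were called lower, where 9.04% of all genes were called, 5.67% lower. Hist1h2bb, an H2B gene, was lower by −2.05 ± 0.28 (adjusted p = 2.85e-05 in limma) and Hist1h4i by −0.68 ± 0.19 (adjusted p = 0.0271 in limma). The call of Hist1h4i was lost with the mean of its probes (−0.24, adjusted p = 0.438 in limma), with the AF2 arrays alone, and without AF2 KO placebo replicate 1 or 2 or AF2 WT placebo replicate 2 or 3, and 4 genes were called without AF2 WT placebo replicate 4. Epithelial markers differed in the same arrays, with 4 of 6 called higher in AF2 KO placebo uteri (median 0.46) and a summed level of 171 to 242 in AF2 KO placebo against 129 to 163 in AF2 WT placebo. Of the macrophage markers, Cd14 was called higher in AF2 KO placebo. The part of these markers in the histone calls was not tested. Hist1h2bb lay at −4.12, −4.48, −3.87 and −4.44 on AF2 KO placebo arrays, against −1.90, −2.45, −2.33 and −2.02 on AF2 WT placebo arrays. The AF2 WT placebo group was thus apart from the AF2 KO placebo group, and also from MISS KO placebo (−4.41 to −3.02) and MISS WT placebo (−4.12 to −3.24). MISS WT against AF2 WT placebo uteri gave 3 genes called lower, Hist1h2bb (−1.38 ± 0.28), Hist1h4i (−0.79 ± 0.19) and Hist1h4h (−0.41 ± 0.11), where 11.7% of all genes were called, 8.61% lower. Without AF2 WT placebo replicate 3, Hist1h2bb alone was called. The lines differ in substrain too, so line and substrain cannot be told apart in that comparison.

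Hist1h2bb and Hist1h4i were also the 2 genes whose E2 response differed between the wild types, MISS WT minus AF2 WT, by 1.40 ± 0.40 and 0.95 ± 0.28 (adjusted p = 0.027 and 0.0282 in limma), where 9.5% of all genes were called, 6.39% higher. This comparison shares its arrays with the placebo comparison above. Leaving out MISS WT E2 replicate 1 or AF2 WT E2 replicate 4 left 0 genes called, and leaving out any of 7 other arrays left 1. Between MISS KO and MISS WT placebo uteri, limma called 0 of 44 genes, where 0.85% of all genes were called, and 3 had an unadjusted p under 0.05.

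Promoters of 41 of the 49 genes were found in RefSeq (GRCm38.p6), as windows of 250 bases before and 50 after the start of the gene. The CCAAT box, a site of general promoter factors, was searched as CCAAT on both strands and was present in 36 of the 41, against 37.4% of all 32851 promoters. It was in every promoter of the H1, H2A, H2B and H3 genes and in 2 of 7 of the H4 genes. The octamer ATTTGCAT, known as the site of Oct1 (Pou2f1) in H2B promoters, was in 13 of the 41, among them 7 of 14 H2A and 6 of 9 H2B genes, against 1.74% of all promoters. TATAAA was in 25 of the 41, against 13.6% of all promoters, and the palindromic estrogen response element, searched without mismatch, was in 0 of the 41, against 0.07% of all promoters. Promoters of H2A and H2B genes can face each other, and overlapping windows on opposite strands joined Hist1h2aa with Hist1h2ba, Hist1h2ae with Hist1h2bg, and Hist1h2an with Hist1h2bp. Hist1h2aa and Hist1h2ba, which share 220 bases of their windows, both fell in AF2 WT, by −1.91 ± 0.27 and −1.30 ± 0.16. Hist1h2an and Hist1h2bp share 261 bases, and there Hist1h2bp fell (−0.79 ± 0.25) while Hist1h2an, read by a shared probe, was not called (−0.61 ± 0.27). In the pair that shares 279 bases, Hist1h2bg fell by −1.44 ± 0.14 and Hist1h2ae was not tested.

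The 250 bases before the start are shown for the Hist3 pair and for Hist1h2ba, which fell, and for Hist2h2ab, which rose, with each CCAAT, ATTTGCAT and TATAAA match on either strand in capitals. They lie at chr11:58948661-58948910 (plus strand) for Hist3h2ba, chr11:58954435-58954684 (plus strand) for Hist3h2a, chr13:23934157-23934406 (minus strand) for Hist1h2ba and chr3:96219635-96219884 (plus strand) for Hist2h2ab, all in GRCm38.p6.
Hist3h2ba: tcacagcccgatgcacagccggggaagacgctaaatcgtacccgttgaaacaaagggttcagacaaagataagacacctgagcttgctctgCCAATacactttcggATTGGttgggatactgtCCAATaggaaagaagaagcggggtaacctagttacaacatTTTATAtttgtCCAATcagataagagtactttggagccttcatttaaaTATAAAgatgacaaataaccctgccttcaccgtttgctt
Hist3h2a: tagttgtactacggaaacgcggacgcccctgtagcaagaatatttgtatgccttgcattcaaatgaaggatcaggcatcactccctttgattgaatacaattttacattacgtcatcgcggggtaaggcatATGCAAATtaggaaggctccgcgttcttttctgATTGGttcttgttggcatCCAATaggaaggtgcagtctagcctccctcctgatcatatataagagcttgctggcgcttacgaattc
Hist1h2ba: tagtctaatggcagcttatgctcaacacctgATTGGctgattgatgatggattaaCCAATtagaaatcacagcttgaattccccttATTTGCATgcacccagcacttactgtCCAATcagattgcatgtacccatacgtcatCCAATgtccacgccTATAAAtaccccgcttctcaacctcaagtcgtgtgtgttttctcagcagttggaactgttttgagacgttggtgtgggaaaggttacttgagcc
Hist2h2ab: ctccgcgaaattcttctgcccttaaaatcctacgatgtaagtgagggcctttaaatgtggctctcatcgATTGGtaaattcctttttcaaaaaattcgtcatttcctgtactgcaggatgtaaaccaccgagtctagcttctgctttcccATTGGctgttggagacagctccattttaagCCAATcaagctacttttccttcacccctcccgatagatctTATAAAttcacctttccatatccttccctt

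Hist3h2ba shows 4 CCAAT boxes and 2 TATAAA matches and no octamer, and Hist3h2a 2 CCAAT boxes and 1 octamer. Hist1h2ba shows 4 CCAAT boxes, 1 octamer and 1 TATAAA match. Hist2h2ab, the gene that rose, shows 3 CCAAT boxes and 1 TATAAA match. A match is a description of the letters and not a site of binding.

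In AF2 WT uteri 14 of 21 tested genes of histone message transcription and end processing rose and 3 fell, where 27.6% of all genes were called higher and 30% lower. Slbp, which binds the stem-loop, rose by 1.19 ± 0.18 (adjusted p = 2.96e-06 in limma). Ncbp1, the large subunit of the cap-binding complex, rose by 2.20 ± 0.07, Upf1, a helicase of message decay that also acts on histone messages, by 1.68 ± 0.09, Cpsf2, a subunit of the cleavage machinery, by 1.64 ± 0.10, and Snapc1 by 1.26 ± 0.17. Pou2f1 (−0.49 ± 0.11), Ccne1, which encodes cyclin E1 (−0.43 ± 0.13), and Lsm10, a part of the U7 particle that cuts histone messages (−0.29 ± 0.08), fell. Npat, the coactivator of histone genes at the histone locus body, changed by −0.25 ± 0.31 and was not called. In AF2 KO limma called 0 of the 21, beside 3.68% of all genes, and 4 had an unadjusted p under 0.05. In MISS KO 14 rose and 3 fell, beside 30.1% of all genes higher and 27.2% lower, and in MISS WT 14 rose and 4 fell, beside 35.1% higher and 27.1% lower.

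Chaperones and import factors gave 14 rises and 3 falls among 23 tested genes in AF2 WT, beside 27.6% of all genes higher and 30% lower. Ipo5 and Ipo4, importins that carry histones into the nucleus, rose by 2.15 ± 0.11 and 1.54 ± 0.09, Nasp, a chaperone of H3 and H4, by 1.77 ± 0.07 and Hat1, which acetylates new H4, by 1.29 ± 0.11. Asf1a (−0.53 ± 0.15), Chaf1a and Chaf1b (−0.42 ± 0.12 and −0.42 ± 0.15), which bring H3 and H4 to DNA, fell. In AF2 KO limma called 0 of the 23, beside 3.68% of all genes, and 2 had an unadjusted p under 0.05.

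Of 13 tested genes of histone variants outside the clusters, 6 rose and 2 fell in AF2 WT. The share called was near the 57.6% over all genes. H2afx, whose protein marks DNA breaks when phosphorylated, rose by 1.44 ± 0.09, H2afy, the gene for macroH2A1, by 0.75 ± 0.11, H2afz, the gene for H2A.Z, by 0.57 ± 0.14 and H1fx by 0.51 ± 0.14. Cenpa, the H3 variant of centromeres, fell by −1.86 ± 0.12 and H2afv by −0.61 ± 0.13. In AF2 KO limma called 0 of the 13, beside 3.68% of all genes, and 1 had an unadjusted p under 0.05. In MISS KO H2afx rose by 1.83 ± 0.09 and in MISS WT by 1.86 ± 0.09, while Cenpa fell by −1.97 ± 0.12 and −2.19 ± 0.12.

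Of 26 tested genes of S phase, 8 rose and 5 fell in AF2 WT, with a median of 0.07. Over all genes 27.6% were called higher and 30% lower there, so the list was called about as often as other genes. Pcna, the sliding clamp of DNA synthesis, rose by 1.38 ± 0.10, Mcm5, a part of the replicative helicase, by 1.02 ± 0.11, Rrm2, a subunit of ribonucleotide reductase, by 0.96 ± 0.24 and Gins1 by 0.63 ± 0.16. Mcm7, another part of that helicase, fell by −0.85 ± 0.10, Mki67, a marker of dividing cells, by −0.82 ± 0.28 and Cdt1, which loads the helicase, by −0.48 ± 0.13. In AF2 KO limma called 0 of the 26, beside 3.68% of all genes, and 3 had an unadjusted p under 0.05. In MISS KO 11 rose and 6 fell, beside 30.1% of all genes higher and 27.2% lower. In MISS WT 9 rose and 8 fell, beside 35.1% higher and 27.1% lower. The list was called about as often as other genes there too.

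**Figure D5:**
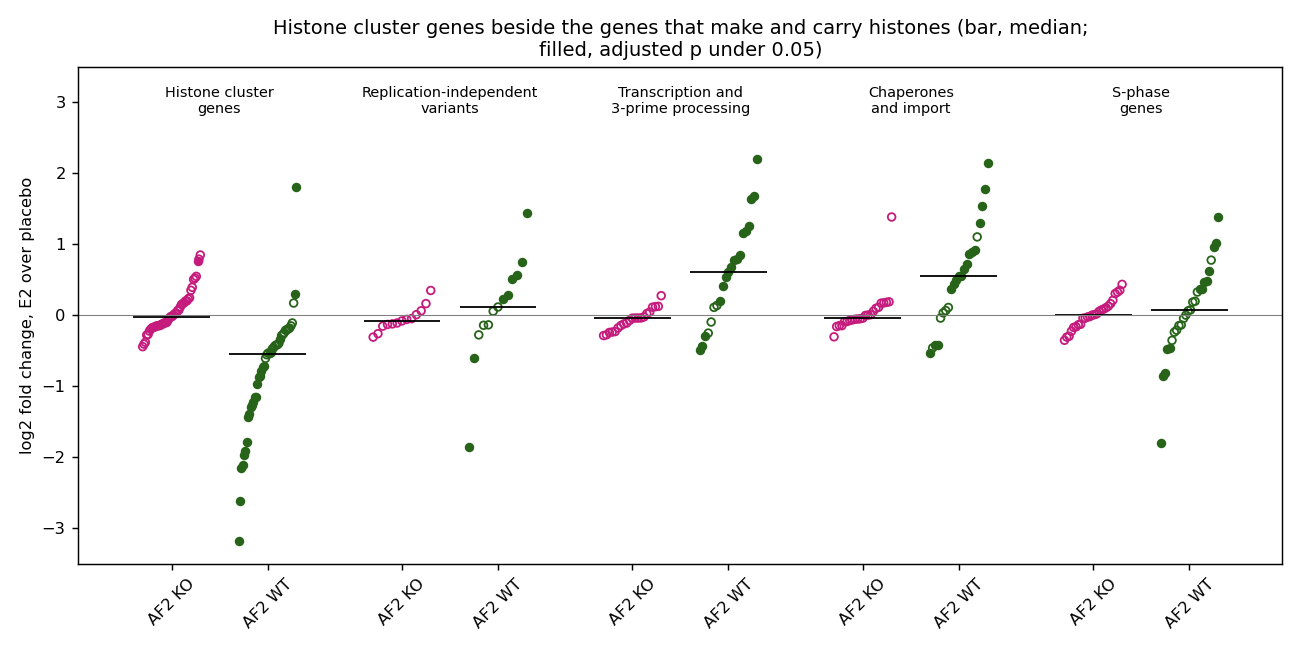
Log2 fold change of E2 over placebo (y axis) for the 44 tested histone cluster genes and the tested genes of 4 related lists, each in AF2 KO and AF2 WT uteri; filled points had an adjusted p under 0.05 and bars are medians. In AF2 WT the median is −0.54 for the cluster genes and 0.61 for the transcription and processing genes; in AF2 KO these medians are −0.02 and −0.04.

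Markers of cell types moved in the same arrays. Beside the counts below, 30% of all genes were called lower and 27.6% higher in AF2 WT. These shares were 27.2% and 30.1% in MISS KO, and 27.1% and 35.1% in MISS WT. In AF2 KO 3.68% of all genes were called. Of 6 stromal markers, 5 fell in AF2 WT, 4 in MISS KO, 4 in MISS WT and 1 in AF2 KO. Their summed level, on a linear scale relative to the 75th percentile, was 390 to 438 in AF2 KO E2 against 460 to 562 in AF2 KO placebo, 227 to 280 in AF2 WT E2 against 411 to 479 in AF2 WT placebo, 206 to 292 in MISS KO E2 against 452 to 553 in MISS KO placebo, and 247 to 276 in MISS WT E2 against 469 to 624 in MISS WT placebo. Of 6 epithelial markers none fell, and 4 rose in AF2 WT, 4 in MISS KO and 2 in MISS WT. Of 6 smooth muscle markers limma called 0 in AF2 WT, where 1 had an unadjusted p under 0.05, while 4 rose in MISS KO and 5 in MISS WT. Of 4 macrophage markers, 3 fell in AF2 WT, MISS KO and MISS WT each, and the other, Cd68, rose in AF2 WT and MISS KO. Of 4 endothelial markers 2 rose in each of these 3 genotypes and 1 fell in MISS KO and MISS WT, and of 6 lymphocyte markers 1 fell in AF2 WT, 2 in MISS KO and 3 in MISS WT. In AF2 KO limma called none of the markers of these 5 types, and 1 epithelial, 3 smooth muscle and 1 endothelial marker had an unadjusted p under 0.05. The part of these shifts in the fall of the histone genes was not tested.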

How the data were processed

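Gene expression was measured on Agilent 1-colour arrays with 60-base probes. Per the file headers and the submitters' processing notes, the authors read them with Agilent Feature Extraction 10.10.1.1, and the deposited intensity used here is its processed, background-subtracted signal. The deposited log2 value table of the series, which names limma in the notes, served as an alternative; its normalization is not given in the sources used here. The intensity was scaled by the 75th percentile of each array and set on the log2 scale. Of 55681 non-control probes, 40332 were tested, those well above background throughout some group. The brightest stood for each of 27055 genes. Group means over 31 arrays were fitted with limma 3.58.1 in R 4.3.3 and p-values adjusted by Benjamini-Hochberg. The fit was tested on simulated data. Positions and promoters came from the files (mm9) and from RefSeq (GRCm38.p6), where 46 of 49 genes matched by accession. Members and lists were chosen with earlier results of these data known. Named were the called members with the largest changes in each comparison, all testis and poly(A) list members, and from other lists the called genes that changed most in AF2 WT, with Slbp and Npat; 1 gene that the rule names is not reported here. Alternatives were another background correction, quantile normalization, other filters, the slide as a block, the mean of probes, 1 line at a time and leaving out each array. The number of arrays limits the precision.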

Additional observations from a re-analysis of the deposited data

Results flagged for a closer look

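Of 77 groups of 4 arrays examined, 3 held an array apart from the others, and chance alone sets an array apart in about 1 in 20 groups. Hist3h2ba lay at 1.58 in MISS KO placebo replicate 4, above the other 3 arrays of its group. Hist3h2a lay at 1.13 in MISS WT E2 replicate 4, above its group. The median level of the tested histone genes was −0.79 in MISS KO E2 replicate 4, below its group.

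The response to E2 differed between AF2 KO and AF2 WT for 19 histone genes by the interaction term in limma, where 51.9% of all genes were called. Differences, KO minus WT, were 2.70 for Hist1h2ac, 2.34 for Hist3h2ba, 1.98 for Hist1h2aa, 1.83 for Hist3h2a, 1.71 for Hist1h1c and −0.43 for Hist1h3d. That of Hist1h2bq was fitted at 2.74, with none of its AF2 WT E2 arrays well above background, so that its size is not ranked with the others. Between the wild types the response differed for 2 genes, MISS WT minus AF2 WT, by 1.40 for Hist1h2bb and 0.95 for Hist1h4i, where 9.5% of all genes were called.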

How the results depend on the processing

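The count of genes called after E2 ran from 20 to 36 in AF2 WT, 22 to 37 in MISS KO and 19 to 32 in MISS WT over the alternatives. In AF2 KO it was 2 with normexp (Hist1h4h, Hist1h4i), 2 in the authors' deposited table (Hist1h2bg, Hist1h4i), 3 with the slide as a fixed or random block (Hist1h2bg, Hist1h4h, Hist1h4i), and 0 under quantile normalization, with the mean of probes and with 1 line at a time. Over all genes, these settings called 1672, 689, 2770, 2480, 643, 1110 and 657 in the same order. With the slide as a fixed block, 30 genes differed in response between AF2 KO and AF2 WT, 1 (Hist1h4d) between MISS KO and MISS WT, 5 between AF2 KO and AF2 WT placebo, 1 (Hist1h2bg) between MISS KO and MISS WT placebo, and 5 between the wild types on placebo. Over all 27055 genes tested, these counts were 16889, 1119, 5446, 839 and 5651. A random block gave 5 and 1 for the placebo comparisons of the AF2 and MISS lines, beside 5037 and 790 over all genes. The mean of probes, and 1 line at a time, left 1 gene (Hist1h2bb) for AF2 placebo, and the mean of probes left 1 (Hist1h2bb) for the response of the wild types. Leaving out 1 array gave 0 to 1 genes in AF2 KO, 17 to 21 for the AF2 response difference, 1 to 4 for AF2 placebo, 1 to 4 for the wild types on placebo and 0 to 2 for their response. Hist1h3d turned to −0.16 and −0.17 in AF2 WT, −0.0452 and −0.025 in MISS WT, and 0.0025 and 0.0107 for the AF2 response difference, under quantile normalization and in the authors' deposited table in that order. Hist1h4i turned to −0.30 in MISS WT with the mean of probes. The median in MISS WT was −0.34 with normexp and −0.80 under quantile normalization. The causes were not tested. Probes near background limit Hist1h2bq, Hist1h2ac, Hist1h4m and Hist2h2ab. Arrays were not paired by replicate number, since the labels give none and the numbers used here only name arrays; they were matched by slide in the fits with the slide as a block.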
